A study of Caenorhabditis elegans with 6 samples.

Results

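NanoDam profiling of EGL-43, a transcription factor of the nematode Caenorhabditis elegans, placed 780 regions on chromosome X. These are all lines of the authors' file of combined regions that lie on X, 780 of 4511 regions in the file (17.3%). Each region was given the peaks of the replicate 1, replicate 2 and replicate 3 lists that overlap it by at least 1 bp, with their scores. The 607 X peaks of these lists all lay inside one of the 780 regions.

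NanoDam joins a nanobody against GFP to Dam, a methyltransferase from bacteria whose target is the adenine in GATC, so that DNA close to a GFP-tagged protein is marked. EGL-43::GFP animals (3 samples, strain DQM975, genotype bmdSi244; egl-43(bmd88)) carried EGL-43 tagged with GFP at its own locus together with the fusion, and control animals (3 samples, strain DQM986, genotype bmdSi244) carried the fusion alone. Both groups therefore shared bmdSi244, a single-copy insertion in which an anchor cell promoter, labelled lin-29 in the sample names, drives the fusion. About 5000 synchronised larvae were pooled per sample, kept on bacteria without Dam for 3 generations and taken at the L3 stage after 24 h of feeding at 25 degrees. DNA came from whole animals, and no expression values were used here, so the labelled cell type could not be checked against its markers. Each replicate list compares 1 EGL-43::GFP sample with the control sample of the same number, so the background of the fusion is already part of each score, and no value of a single sample was used.

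EGL-43 is a zinc-finger transcription factor related to mammalian EVI1 and acts in the anchor cell. The anchor cell is a specialised cell of the somatic gonad that induces the vulva and breaches the basement membrane between uterus and vulva during the L3 stage. Chromosome X is present as a pair in hermaphrodites and unpaired in males, and in hermaphrodites a dosage compensation complex lowers its transcription. Autosomes of this species have gene-rich centres and arms with more recombination, whereas on X this contrast is weaker.

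The 780 regions covered 1.18 Mb, or 6.68% of X taken up to the last base that any deposited interval reaches (17708347). The first region began at position 60652. Positions are those of the deposited files, counted from 1; the submitters' processing notes name the build ce10. Region widths ran from 98 to 7695 bp, with a median of 1243 bp and a middle 50% from 807 to 1927 bp. There were 44.0 regions per Mb on X and 45.2 per Mb on the pooled autosomes. The X value lay inside the range of single autosomes, from 38.6 on V to 52.5 on II. The median X region was wider than the median region of every autosome (1243 bp on X, against 1059 to 1117 bp on I to V). Spacing between neighbours on X had a median of 13.9 kb, against 11040 bp on the autosomes, and a middle 50% from 5.24 to 28.8 kb. These widths and gaps are descriptions of a file that was made once from all replicates, and they have no replicate error.

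Most X regions had a peak in at most 1 list. Of the 780, 312 held no peak of any list (40%, 95% Wilson interval 36.6 to 43.5%), where 38.7% of all combined regions held none. A further 365 held peaks of exactly 1 list (46.8%, interval 43.3 to 50.3%; 48.8% of all combined regions). Peaks of at least 2 lists were found in 103 X regions (13.2%, interval 11.01 to 15.8%; 12.4% of all combined regions). Peaks of all 3 lists were found in 27 (3.46%, interval 2.39 to 4.99%; 3.95% of all combined regions). Each X share was close to the share over the whole file, and the whole-file share lay inside each X interval. The intervals cover counting error only and treat regions as independent. Because library depth is unknown, a list without a peak at a region does not show that the region was unmethylated in that replicate.

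The 3 lists supported similar numbers of X regions. A replicate 1 peak lay in 219 of them (28.1%; 26.2% of all combined regions), a replicate 2 peak in 176 (22.6%; 25.2% of all) and a replicate 3 peak in 203 (26.0%; 26.2% of all). Among the regions of 1 list, 136 came from replicate 1, 106 from replicate 2 and 123 from replicate 3. Among the 76 regions of exactly 2 lists, 33 were shared by replicates 1 and 3, 23 by replicates 1 and 2, and 20 by replicates 2 and 3. Replicate 2 contributed the fewest regions of 1 list and was in the 2 smaller pairings, and it also had the fewest X peaks, as given below.

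Support grew with region width. X regions without a list peak had a median width of 1068 bp, and those of 1 list 1205 bp. With 2 lists the median was 2411 bp, and with all 3 it was 3407 bp. The narrowest region of all 3 lists was 1897 bp wide. Split by width into 4 classes of similar number, the share of regions with at least 2 lists was 1.03% in the narrowest class (98 to 804 bp), 1.53% in the next (808 to 1243 bp), 10.8% in the next (1246 to 1927 bp) and 39.5% in the widest (1928 to 7695 bp). Regions without a list peak made up 49.7, 46.9, 39.7 and 23.6% of the same classes. A region that joins offset peaks of several lists is wide by construction, so width and support are not independent measures.

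**Figure D1:**
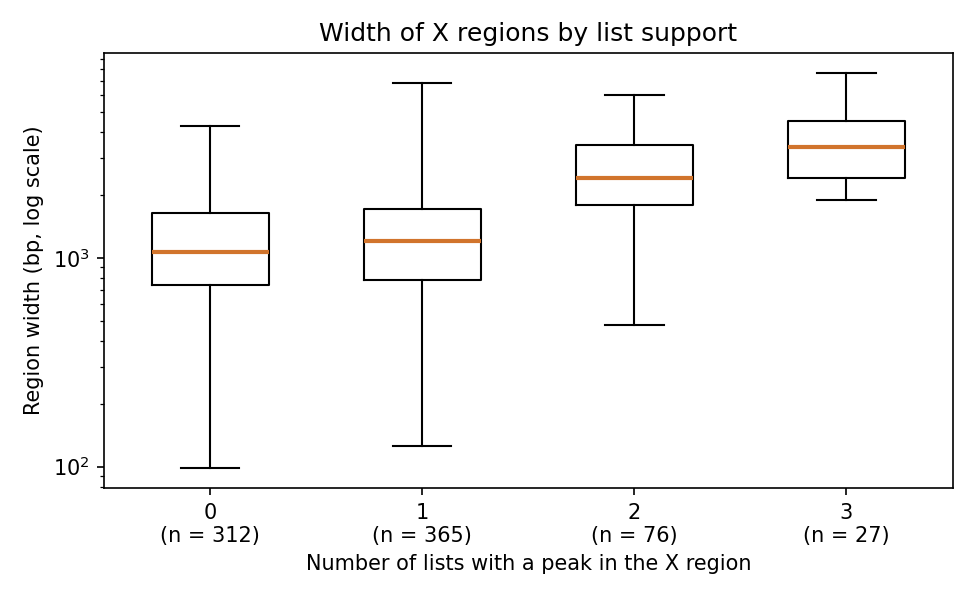
Width of the X regions (bp, log scale) by the number of lists with a peak in the region. Boxes show the median and the middle 50%, whiskers the full range; the medians are 1068, 1205, 2411 and 3407 bp for 0, 1, 2 and 3 lists.

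The best supported X regions were those with peaks of all 3 lists, ranked by the lowest of their 3 scores. A score is the authors' own value per peak; its scale is not stated, so scores are used to rank and describe peaks. The highest-ranked ran from 6738961 to 6745928 (6968 bp), with highest scores of 2.96, 2.97 and 3.05 in replicates 1, 2 and 3. It was the region with the most peaks on X, 6 in all, with 2 from each list. Each list had a left peak and a right peak there: the left ones lay at 6738961 to 6741332 in replicate 1, 6739723 to 6740995 in replicate 2 and 6739723 to 6742529 in replicate 3. The right ones lay at 6742589 to 6745751, 6743944 to 6745604 and 6743944 to 6745928 in the same order. All 3 replicates thus resolved the region into a left and a right interval, and in each list the right peak scored higher (2.96 against 2.89, 2.97 against 2.63, and 3.05 against 2.69).

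The second-ranked region (9100138 to 9103646, 3509 bp) scored 3.05, 3.64 and 2.86 in replicates 1, 2 and 3. Its peaks had 1206 bp in common, ending at 9102095. The third (4523038 to 4525632, 2595 bp) scored 3.16, 3.88 and 2.77, and its common stretch of 1128 bp was the whole replicate 2 peak. In both, replicate 2 gave the highest and replicate 3 the lowest score.

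The fourth and the fifth regions had peaks of all 3 lists without any base common to all of them. From 6512081 to 6516738 the scores were 2.87, 3.63 and 2.75, but the replicate 2 peak ended at 6514287 and the replicate 1 peak began at 6514724. From 6869122 to 6873969 the scores were 3.05, 2.69 and 3.75, and the replicate 2 peak ended at 6870611, before the replicate 1 peak began at 6870706. In each case the wider replicate 3 peak bridged both. The replicate 3 peak of the fifth region (4848 bp) had the highest score of that list on X.

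Sixth in rank, 15279633 to 15281932 had the narrow score range of 2.66, 2.79 and 2.76. The seventh, 7550541 to 7552688, had identical peaks of 2148 bp in replicates 1 and 2 with scores of 3.39 and 3.19, while the replicate 3 peak covered only its first 715 bp and scored 2.63. Eighth was 5726397 to 5730074, with highest scores of 2.59, 2.74 and 2.69. Its replicate 3 score of 2.69 belonged to a peak of 345 bp, while the longest stretch common to peaks of all 3 lists (346 bp) lay in a second replicate 3 peak that scored 1.85. The replicate 1 peak of this region was 3130 bp wide and the replicate 2 peak 1150 bp.

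The ninth region ran from 15276296 to 15278463 and scored 2.95, 3.37 and 2.52. Its replicate 1 and 3 peaks were identical (15277001 to 15278076), and the replicate 2 peak began at the same base. It lay 1169 bp left of the sixth region. The tenth, 2115415 to 2119124, scored 3.07, 3.90 and 2.50, and its 3 peaks had 1604 bp in common.

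**Figure D2:**
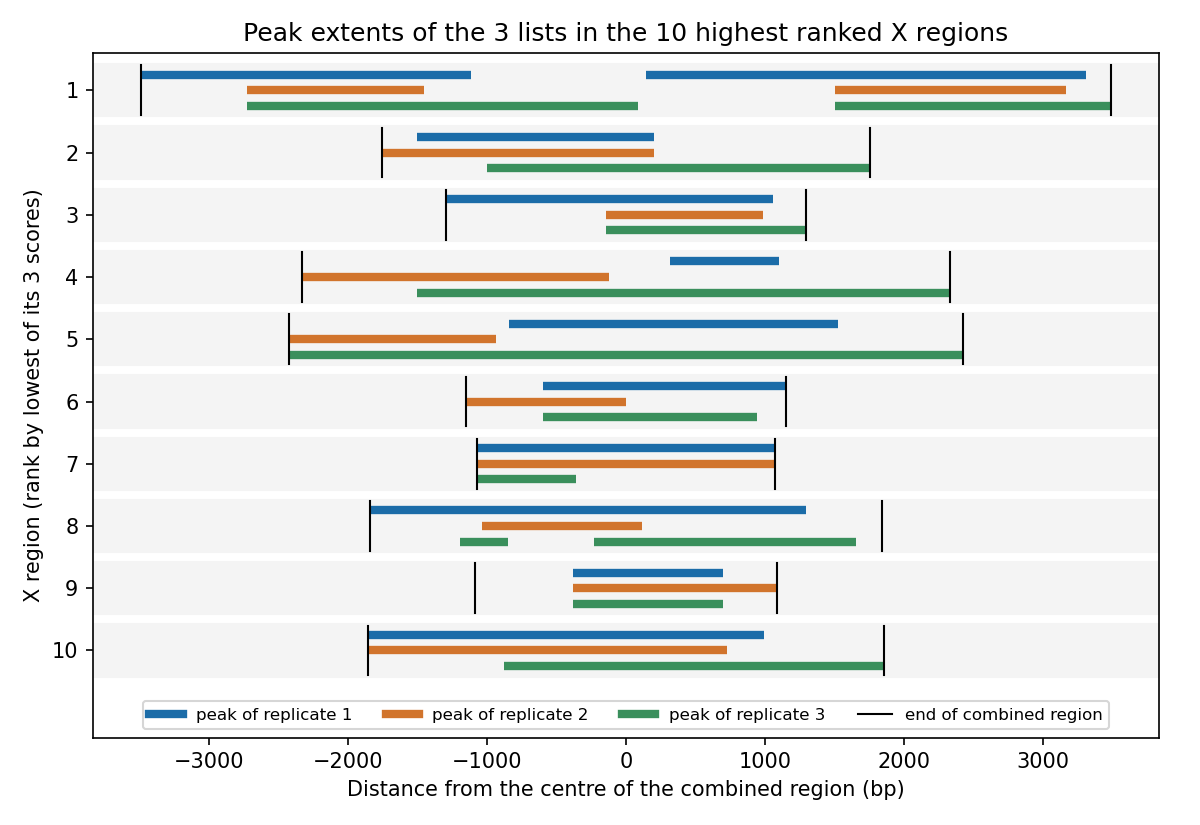
Extent of each peak of the 3 lists in the 10 highest ranked X regions, as distance from the centre of the combined region (bp); black ticks mark the ends of the combined region. Region 1 holds a left and a right peak in each list, and in regions 4 and 5 the replicate 1 and replicate 2 peaks do not overlap.

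The other 17 regions of all 3 lists had lowest scores from 1.67 to 2.45. The lowest-ranked, 4749223 to 4751119, scored 2.60, 2.65 and 1.67, with identical peaks in replicates 1 and 2. A wide disagreement was seen at 17507938 to 17511533, where replicate 2 scored 3.81 and replicates 1 and 3 scored 2.59 and 1.76. Over all 27, the gap between the highest and the lowest score of a region had a median of 0.86 and ran from 0.09 to 2.05. Replicate 3 gave the lowest score in 18 of the 27 and replicate 2 the highest in 18, and their lists also had the lowest and the highest median score on X (2.12 and 2.69).

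**Figure D3:**
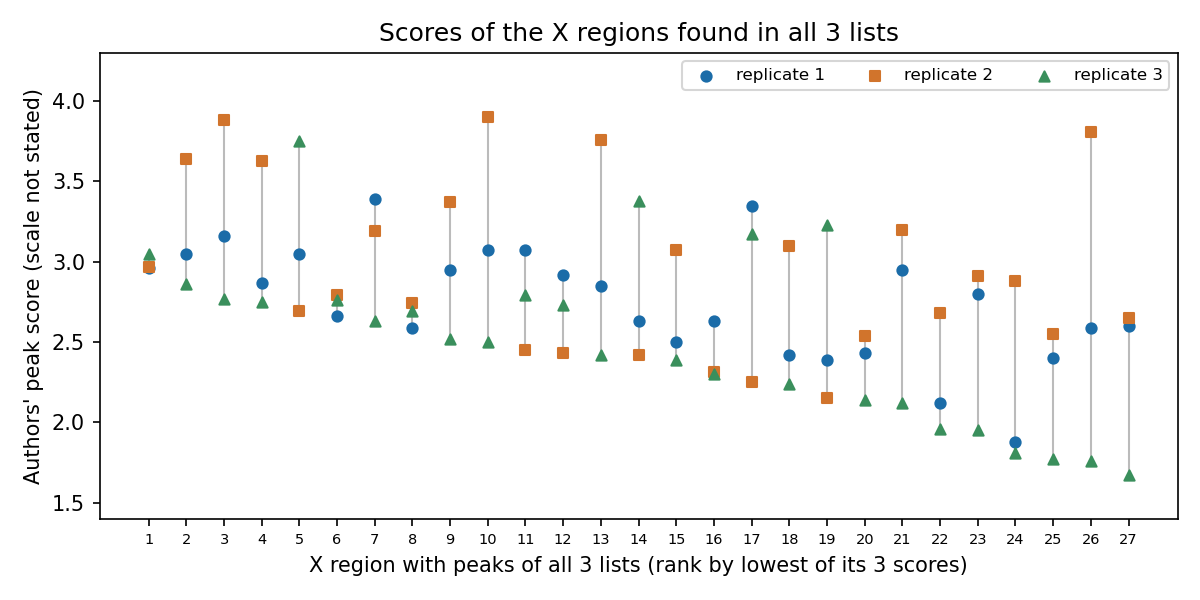
Authors' peak scores (scale not stated) of the 27 X regions found in all 3 lists, ordered by the lowest of the 3 scores, with the highest score per list where a list has several peaks. Grey lines join the scores of a region; replicate 2 is the highest point in 18 regions and replicate 3 the lowest in 18.

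Regions of more lists had higher median scores within each list. In replicate 1 the median was 2.25 for regions of 1 list (n = 136), 2.40 for 2 lists (n = 56) and 2.80 for 3 lists (n = 27). In replicate 2 it was 2.65 (n = 106), 2.74 (n = 43) and 2.88 (n = 27), and in replicate 3 it was 2.05 (n = 123), 2.21 (n = 53) and 2.52 (n = 27). The order was the same in all 3 lists, but the ranges overlapped widely. In replicate 2, a peak from 3313918 to 3316061 scored 4.05 and was found in that list only, while the lowest score of that list in a region of all 3 lists was 2.15. Of the 27 regions, 25 were above the X median of replicate 1, 16 above that of replicate 2 and 20 above that of replicate 3. In all 3 lists together, 12 of the 27 were above it.

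Sharing a region did not always mean sharing a position. Of the 27 regions of all 3 lists, 18 had a stretch of over 1 bp common to a peak of each list, from 346 to 1710 bp long. In 3 regions the common stretch was exactly 1 bp, that is, the peaks abutted at a base, as at 12172782, where the replicate 2 peak ended and the replicate 1 and 3 peaks began. In 6 regions no base was common to all 3 lists. No region had a peak of identical extent in all 3 lists, and 4 had a first or last base common to all 3. These counts were made for X only, so they cannot be called particular to X.

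Pairs of lists showed the same mixture on X. For replicates 1 and 2, 49 of 223 peaks (22.0%) and 48 of 179 peaks (26.8%) overlapped a peak of the other list. For replicates 1 and 3 the counts were 55 of 223 (24.7%) and 54 of 205 (26.3%). For replicates 2 and 3 they were 46 of 179 (25.7%) and 47 of 205 (22.9%). On the autosomes the shares for the same pairs were 27.9 and 27.8%, 27.4 and 27.0%, and 22.8 and 22.7%. The X shares were thus below the autosomal ones for both pairs with replicate 1 and above them for replicates 2 and 3, with differences that were not tested. Identical extents made up 6 of 50 overlaps for replicates 1 and 2, 4 of 56 for replicates 1 and 3, and 2 of 47 for replicates 2 and 3, against 30 of 282, 35 of 283 and 17 of 234 on the autosomes. Overlaps of exactly 1 bp numbered 4, 1 and 2 on X and 8, 9 and 20 on the autosomes in the same order. Across overlapping X peaks, Spearman's rho of the scores was 0.37 (n = 50), 0.23 (n = 56) and 0.03 (n = 47), against 0.31, 0.30 and 0.15 on the autosomes; these are descriptions across peaks that share libraries.

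The highest score of any peak in the 3 lists lay on X and was seen in replicate 2. The peak ran from 5907364 to 5913134 (5771 bp) with a score of 7.37 and an FDR of 6.16e-20. The next highest score of replicate 2 was 5.06. Replicate 1 had 2 narrower peaks inside this peak. They ran from 5907889 to 5909438 with a score of 3.49 and from 5911101 to 5912603 with a score of 3.01. Their FDRs were 0.00321 and 0.00228, both over 0.001. Replicate 3 had no peak there, and its nearest X peak was 77.8 kb away. The value of 7.37 therefore stood on 1 replicate, although replicate 1 also placed its third-highest X score in the same region.

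In the other lists the highest X peaks were closer to the rest. The highest of replicate 1 ran from 8341776 to 8343843 with a score of 4.01 (rank 15 in the whole list), and replicate 2 scored 2.83 there while replicate 3 had no peak. The highest of replicate 3 was the peak from 6869122 to 6873969 with a score of 3.75 (rank 20 in its list). Of the 3 highest X peaks, then, the replicate 3 one was found in every list and each of the others in 1 further list.

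At the upper end, X scores lay below those of the pooled autosomes in each list, but not below those of every single autosome. The 95th percentile of scores was 3.07 on X against 3.36 on the autosomes in replicate 1, 3.64 against 3.69 in replicate 2 and 3.06 against 3.15 in replicate 3. Set against single autosomes, the X value was below all 5 in replicate 1 (3.11 to 3.57), but in replicate 2 only below V (3.93) and in replicate 3 only below I (3.28) and II (3.17). The mean difference from the pooled autosomes was -0.14 ± 0.13 (SD, n = 3 lists; lower on X in 3 of 3; exact two-sided sign-flip permutation p = 0.25, the smallest that 3 lists allow). Scores of at least 4 were held by 1 of 223 X peaks against 14 of 986 autosomal peaks in replicate 1, 2 of 179 against 20 of 979 in replicate 2, and 0 of 205 against 11 of 1009 in replicate 3. As a share, X (0.45%) was below every single autosome in replicate 1. In replicate 2, X (1.12%) was above I (0.94%) and II (0.48%) and below III to V. In replicate 3, IV also held none. Ranked by their lowest score among all 178 regions with peaks of all 3 lists, the highest X region came 16th. The median of that lowest score was nevertheless 2.42 for the 27 X regions, against 2.36 for the 151 on the autosomes. In 18 of the 27 X regions the lowest score was that of replicate 3. Score levels differ between lists and were not made equal, so this rank depends on the level of single lists. The comparison of upper ends was chosen after the values were seen.

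In the middle of the distribution the differences between X and the autosomes had no common direction over the 3 lists. The sign-flip test over 3 lists cannot give a p under 0.25, so it could not have detected a difference. The median score was 2.33 on X against 2.34 on the autosomes in replicate 1, 2.69 against 2.69 in replicate 2 and 2.12 against 2.09 in replicate 3 (mean difference 0.01 ± 0.02, SD, n = 3 lists; exact sign-flip p = 1). Peaks that overlapped a peak of another list made up 36.3% of X peaks in replicate 1, 39.1% in replicate 2 and 37.1% in replicate 3, where 39.5, 36.2 and 35.2% of all nuclear peaks did so. The mean difference of X from the autosomes was 0.60 ± 3.98 percentage points (SD, n = 3 lists; higher on X in 2 of 3; exact sign-flip p = 1). It turned to -1.67 without replicate 2 and to -3.44 without replicate 3, so no direction can be given. The median score difference likewise turned to -0.005 without replicate 3.

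X peaks numbered 223 in replicate 1, 179 in replicate 2 and 205 in replicate 3, a mean of 202 ± 22.1 (SD, n = 3 lists). Per Mb this was 12.6, 10.1 and 11.6 peaks on X, against 11.96, 11.9 and 12.2 on the pooled autosomes. Set against single autosomes, X lay above IV (9.51) and V (10.1) in replicate 1 and below I to III. In replicate 2 it was above V (9.90) only, and in replicate 3 above IV (9.68) and V (9.62) only. The difference from the pooled autosomes, -0.60 ± 1.20 peaks per Mb, was within the spread between lists (SD, n = 3; lower on X in 2 of 3; exact sign-flip p = 0.5). It was -0.01 without replicate 2 and -1.21 without replicate 1. Of the X peaks, 68.6% in replicate 1, 67.04% in replicate 2 and 68.3% in replicate 3 had an FDR of 0.001 or less, where 68.8, 68.7 and 71.9% of all nuclear peaks did.

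Peaks on X were wider in each list. In replicate 1 the median X peak was 1386 bp wide, against 1197 bp on the autosomes. The values were 1213 bp on X and 1122 bp on the autosomes in replicate 2, and 1140 bp on X and 1084 bp on the autosomes in replicate 3. The X median was above that of each single autosome in all 3 lists, most narrowly in replicate 3 (1140 bp on X against 1135 bp on II). The mean difference was 112 ± 68.9 bp (SD, n = 3 lists; wider on X in 3 of 3; exact sign-flip p = 0.25, the smallest possible; adjusted p = 1 over 4 measures, as for score, recurrence and peaks per Mb). The difference was 73.5 bp without replicate 1, the list with the highest median width on X. With 3 lists this test cannot pass a threshold of 0.05.

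Along the chromosome the 3 tertiles of X held similar numbers of regions. The left tertile of X held 253 regions (32.4%, 95% Wilson interval 29.2 to 35.8%), the central tertile 260 (33.3%, interval 30.1 to 36.7%) and the right tertile 267 (34.2%, interval 31.0 to 37.6%). Regions covered 6.55, 6.84 and 6.65% of the 3 tertiles from left to right. Regions of at least 2 lists were as even, with 34, 34 and 35. On each autosome the central tertile held a larger part, from 41.3% on I to 46.0% on V, so that X was the lowest of the 6 chromosomes.

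The lower central share on X was also seen in each list. Within X the lists differed in the tertile with the most peaks. It was the right one in replicate 1 (36.8%), the left in replicate 2 (38.5%) and the centre in replicate 3 (36.1%). The central tertile held 30.9% of X peaks against 40.9% of autosomal peaks in replicate 1, 28.5% against 35.1% in replicate 2 and 36.1% against 43.1% in replicate 3. X was below each single autosome in every list, most narrowly in replicate 2 (28.5% on X against 30.2% on IV). The mean difference was -7.86 ± 1.80 percentage points (SD, n = 3 lists; lower on X in 3 of 3). The exact two-sided sign-flip permutation p was 0.25, the smallest that 3 lists allow, so this comparison, chosen after the values were seen, cannot pass a threshold of 0.05.

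**Figure D4:**
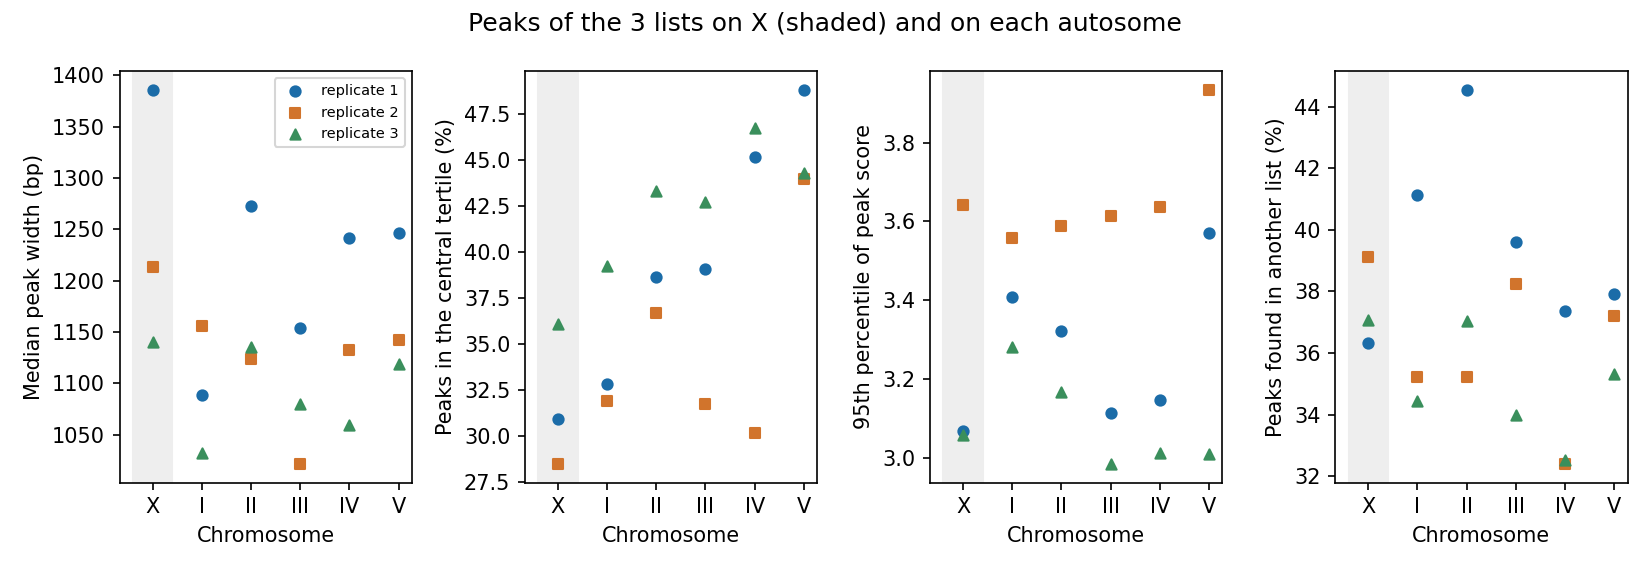
Peaks of the 3 lists on X (shaded) and on each autosome: median width (bp), share in the central tertile of the chromosome (%), 95th percentile of the authors' score, and share that overlaps a peak of another list (%). Each point is 1 list; X has the highest median width and the lowest central share in each list, while the axes do not start at 0.

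At a finer scale, windows of 1 Mb differed. Among the 17 full windows the number of regions had a median of 45. The most regions lay in the window from 6000001 to 7000000 with 59, then from 3000001 to 4000000 with 55, and 54 each from 4000001 to 5000000 and from 16000001 to 17000000. The fewest lay at the left end, with 27 in the first and 31 in the second window, and from 8000001 to 9000000 with 30. Numbers of list peaks also differed between replicates within a window: from 9000001 to 10000000 there were 7, 4 and 14 in replicates 1, 2 and 3.

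Regions of all 3 lists numbered from 0 to 4 per window. The window from 3000001 to 4000000 held 36 regions of 1 list, 3 of 2 lists and 0 of all 3. The window from 4000001 to 5000000 held 4 regions of all 3 lists, the most of any window, and 7 of 2 lists. Between 2000001 and 3000000 there were 2 of all 3 lists and 9 of 2 lists. In 5 of the 18 windows there was none of all 3 lists. The left end of X held none up to 2115414, a stretch with 61 regions of less support. Between neighbours of all 3 lists the longest gap, 1797 kb, ran from 15711414 to 17507937, and the window from 16000001 to 17000000 inside it held 54 regions.

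**Figure D5:**
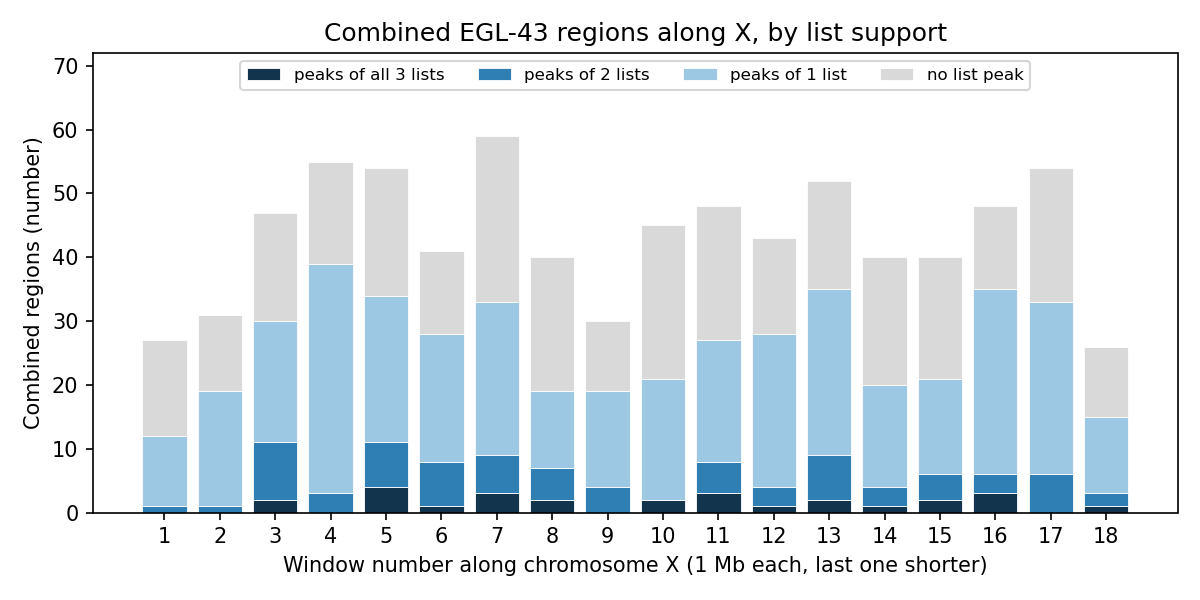
Number of combined regions per window of 1 Mb along X, stacked by list support, with windows numbered from the left end and the last one shorter. Counts in full windows run from 27 to 59; window 5 has the most regions of all 3 lists (4), and windows 1, 2, 4, 9 and 17 have none.

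Some regions of all 3 lists were direct neighbours. The region from 9094650 to 9099117 lay 1020 bp left of the second-ranked one, with scores of 2.63, 2.31 and 2.30 in replicates 1, 2 and 3. The widest X region, 12170528 to 12178222 (7695 bp), lay 2890 bp left of another of all 3 lists that ended at 12186391. With the sixth and ninth regions, 1169 bp apart, these made 3 neighbouring sets within 3 kb. The other 23 gaps between neighbours among the 27 ran from 32.4 to 1797 kb, with a median of 647 kb. Within 1500 bp of any other X region lay 9 of the 27 (33.3%), 17 of the 76 regions of 2 lists (22.4%), 70 of the 365 of 1 list (19.2%) and 52 of the 312 without a list peak (16.7%). These shares were not tested.

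Wide regions were not always supported. The 5 widest X regions had 7695, 6968, 6894, 6011 and 5789 bp. The first and second held peaks of all 3 lists. The region of 6894 bp, from 5475028 to 5481921, held 1 peak, of replicate 1, with a score of 2.88. The remaining ones, from 4960672 to 4966682 and from 6250628 to 6256416, held peaks of replicates 1 and 3 with highest scores of 2.86 and 2.84, and of 2.94 and 2.84, and no peak of replicate 2.

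Long stretches of X were without any region. The longest gap, 158922 bp, lay between 281058 and 439981. Nearly as long was the gap of 158416 bp between 8842249 and 9000666. The next ones were 134780 bp left of 17291177, 115183 bp left of 775856 and 110970 bp left of 7960374. In all, 10 of 779 gaps were over 100000 bp, while 77 were under 1500 bp and the shortest was 17 bp. Gaps under 1500 bp made up 9.88% of gaps on X and 11.5% on the autosomes. The count over 100000 bp was made for X only.

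The 312 X regions without a list peak were narrower than the rest. Their widths ran from 98 to 4301 bp, and together they made up 32.2% of the length of all X regions. The widest lay from 592104 to 596404 (4301 bp), from 3537740 to 3541886 (4147 bp) and from 3412121 to 3415970 (3850 bp). Their median distance to the nearest X region with a list peak was 12.1 kb, and 38 of them (12.2%) lay within 1500 bp of one. Among 468 X regions that hold a list peak, 375 began and ended with their list peaks and 93 (19.9%) were longer, by a median of 987 bp and by up to 3330 bp. How the authors obtained intervals outside the lists is not given in the sources used here. Unbroken runs of regions without a list peak had up to 6 members. Runs of this length occurred 6 times, the leftmost from 69271 to 179419 and the rightmost from 14080692 to 14268423.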

How the data were processed

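Peak lists of 3 replicates and a file of combined regions, as deposited by the authors, were analysed for chromosome X. Per the file headers and lines, each deposited list gives a position, a score and an FDR per peak; the score is the authors' value and its scale is not stated. The submitters' processing notes name minimap2, SAMtools and the build ce10; the peak caller is not given in the sources used here. Both samples of a number name the same list, so lists were not pooled. Starts in the combined file were raised by 1. Genes and sequences of this build were not used here.

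A peak was attached to a region at 1 bp of overlap, and a peak recurred where it overlapped a peak of another list. X was compared with the 5 autosomes per list, with an exact two-sided sign-flip permutation test over the 3 list differences and Benjamini-Hochberg adjustment over 4 measures. The labels do not say whether replicates came from separate cultures, so p-values apply only to these lists. Where all 3 differences have the same direction, the sign-flip p is 0.25 whatever their spread. Shares have 95% Wilson intervals. Tertiles divide the span up to the last base of any deposited interval. Read depth is unknown. The regions described singly are those with peaks of all 3 lists (10 in full), the widest, the longest gaps, the fullest and emptiest windows, and the highest X peak per list. Members, lists and rules were chosen with earlier results of these data known. Alternatives were a stricter FDR, the upper 50% of scores, other overlaps, other definitions of the centre and leaving out each list. Overlaps of simulated lists were tested against a direct count. The tools were Python (version 3.11.15) with scipy (1.17.1), pandas (2.3.3), numpy (2.4.6) and matplotlib (3.10.9).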

Additional observations from a re-analysis of the deposited data

How the results depend on the processing

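The 27 X regions with peaks of all 3 lists fell to 11 with an FDR at or under 0.001 and to 14 with the upper 50% of scores, since fewer peaks can support fewer regions; 25 held a chain of overlapping peaks of all 3 lists. Without one replicate, 47 to 60 X regions held peaks of both remaining lists, against 27 in all 3 and 103 in at least 2. The 103 fell to 70 with an FDR at or under 0.001 and to 50 with the upper 50% of scores. Regions without a list peak rose from 312 to 454 with an FDR at or under 0.001. They numbered 418 to 448 without 1 replicate, and 538 with the upper 50% of scores (chosen after the data were seen). All these counts were made for X only, so they cannot be set against shares over all combined regions. The central share of 33.3% was 51.5% for the middle 50% of the span, a wider centre by construction, and 37.2% for regions without a list peak. Without one replicate, the difference of X from the autosomes ran from -3.44 to 1.58 percentage points for recurring peaks and from -0.005 to 0.015 for the median score, and turned sign; the cause was not tested. Peak width kept its direction under each alternative run, with a difference of 73.5 to 140 bp without 1 replicate. For peaks per Mb, the difference of X from the pooled autosomes stayed below 0 in each run, but was only -0.01 without replicate 2. In replicate 1 alone, peaks per Mb were higher on X than on the pooled autosomes. Settings that need a genome or annotation of the files' build (gene starts, the full length of X) were not run. No paired analysis was possible because each list is already the comparison of 1 EGL-43::GFP with 1 control sample of the same number.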
